A study of Mus musculus with 4 samples.

Results

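The muscle acetylcholine receptor was followed through the 5 genes that encode its subunits, Chrna1 (alpha), Chrnb1 (beta), Chrnd (delta), Chrne (epsilon) and Chrng (gamma). They are 5 of 18193 genes with a probe set of their own on the array. All probe sets to which the platform annotation gives one of these symbols were used, 7 of 45101: 3 for Chrng and 1 for each of the other genes. None of the 7 is annotated to a second gene. RNA came from the left hemi-diaphragm of the mouse, with 2 arrays for its synaptic region and 2 for its non-synaptic region. The labels give the organism, the muscle and the region, and name no strain, age, sex, genotype or treatment for either group. They do not say whether 2 arrays of a region stand for different mice. The p-values therefore rest on array-to-array spread alone, and that spread may be technical.

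The receptor is a ligand-gated cation channel, a ring of subunits in the muscle membrane that opens when acetylcholine released by the motor nerve binds to it. The alpha subunit carries the main part of the binding sites, and the beta and delta subunits are common to all forms of the muscle receptor. In fetal muscle the ring holds the gamma subunit, and in adult muscle epsilon takes its place. Nuclei that lie under the nerve terminal are known to transcribe subunit genes at a higher rate than nuclei elsewhere in an innervated fibre, and loss of the nerve is known to bring several of these genes up along the fibre.

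The deposited values are intensities, the brightness of a probe set on a linear scale. The arrays were already on 1 scale when deposited, with a trimmed mean of 2500.02 or 2500.01 on each. The 3' probe set of Gapdh over its 5' probe set, which reads RNA integrity, was 1.03 and 0.814 on the synaptic arrays and 0.853 and 0.815 on the non-synaptic arrays. Fibre genes were bright in both regions: the summed intensity of 12 fibre markers was 1567620 and 1340530 on the synaptic arrays and 1436590 and 1497100 on the non-synaptic arrays. Pairs of arrays sharing a replicate number were nearer than pairs sharing a region, with median absolute log2 differences of 0.204 and 0.158 across regions, against 0.351 between the synaptic arrays and 0.298 between the non-synaptic arrays. An intensity of 158.891, under which 20% of the values lie, stands in for background as a floor, and dimmer values were set to it ahead of the log2 step.

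The question is which subunit transcripts have another level where the synapses lie than away from them. Chrna1 and Chrne were brighter on both synaptic arrays than on either non-synaptic array, 3.90-fold and 8.61-fold on average, and Chrnb1 lay within the same range in both regions. Chrnd and Chrng were dim, and 1 probe set of Chrng lay higher on both synaptic arrays. Probe sets with a mean log2 value of at least 8.87, an intensity of 468.519, were tested, which kept 3 of the 7, 1 each for Chrna1, Chrnb1 and Chrne, and left 4 for which only values are given.

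Chrna1, whose product binds acetylcholine, had intensities of 9702 and 8633 on the synaptic arrays, against 2345 and 2343 on the non-synaptic arrays. The regions were apart, and the arrays within each region lay close together. The mean was 9167 ± 756 for synaptic arrays and 2344 ± 1.70 for non-synaptic arrays (SD, n = 2 each). The log2 difference was 1.97 ± 0.19 (SE, 95% interval 1.48 to 2.45, limma adjusted p = 0.198 over 26480 probe sets, unadjusted p = 0.000127). In a piece of tissue, more cells of a type and more RNA per cell cannot be told apart, and this holds for each difference given here.

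Chrne, the subunit that marks the adult receptor, had intensities of 6376 and 3470 on the synaptic arrays, against 1023 and 291 on the non-synaptic arrays. The regions did not overlap, and the non-synaptic arrays differed from each other more than the synaptic ones, with an SD of 1.28 on the log2 scale against 0.62 in the synaptic region. The log2 difference was 3.11 ± 0.67 (SE, n = 2 arrays each, 95% interval 1.41 to 4.80, limma adjusted p = 0.9999 over all probe sets, unadjusted p = 0.00505). Without replicate 1 of the non-synaptic region it was 4.01, and without replicate 2 of that region it was 2.20, so the size rests on which of these arrays is used. The mean log2 value of Chrne was 9.09 in the non-synaptic region alone, above the limit for testing, so Chrne was not kept only through the region where it was bright.

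Chrnb1, which encodes the beta subunit, had intensities of 8599 and 11405 on the synaptic arrays and 8804 and 10679 on the non-synaptic arrays. The higher value of each region belonged to replicate 2, and the regions overlapped. The log2 difference was 0.03 ± 0.23 (SE, n = 2 arrays each), with a 95% interval from -0.55 to 0.61 and a limma adjusted p of 0.9999. That interval does not show equal levels, but it ends below the lower limits of 1.48 for Chrna1 and 1.41 for Chrne. Setting the intervals side by side does not test the genes against each other.

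**Figure D1:**
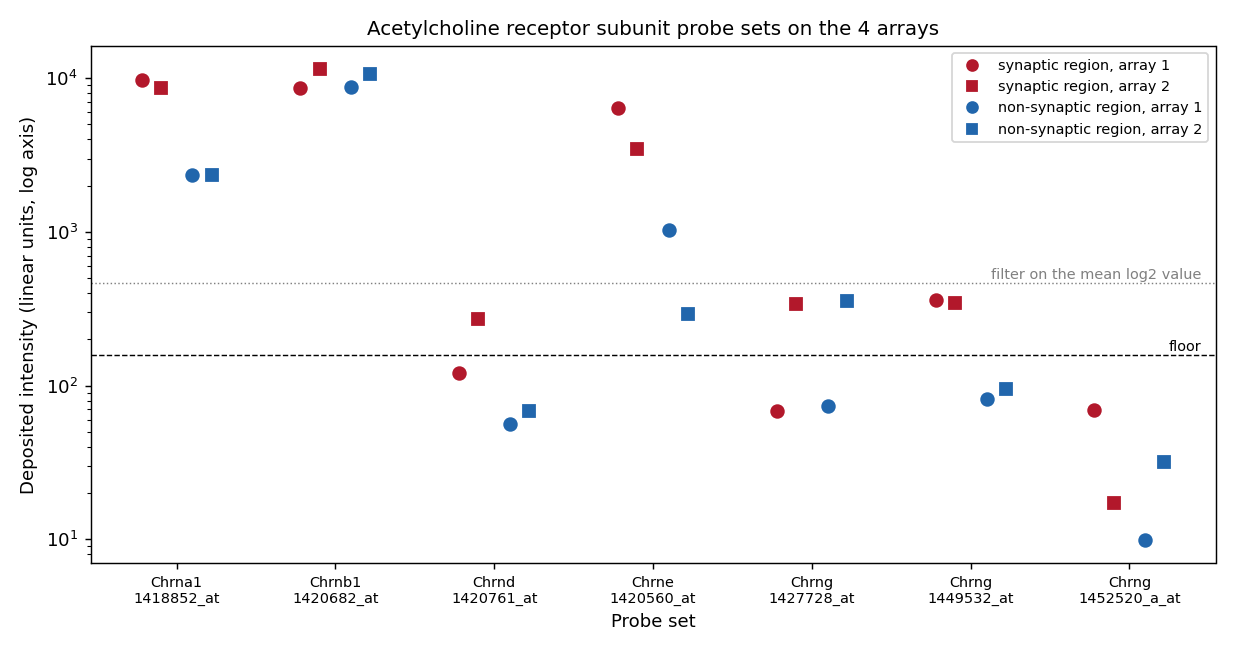
Deposited intensity (log axis, linear units) of the 7 receptor subunit probe sets, 1 point per array, with synaptic arrays in red left of non-synaptic arrays in blue, circles for replicate 1 and squares for replicate 2. The dashed line is the floor of 158.891 and the dotted line the intensity of 468.519 that corresponds to the limit on the mean log2 value. The red points of Chrna1 and Chrne lie above the blue ones, while those of Chrnb1 overlap.

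The delta and gamma genes lie next to each other on chromosome 1, and their probe sets were below the limit for testing. Chrnd had intensities of 121 and 273 on the synaptic arrays, against 56.7 and 68.8 on the non-synaptic arrays. All but the synaptic value of 273 were below the floor, so no fold is given, and without replicate 2 of the synaptic region both regions were at the floor.

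The 3 probe sets of Chrng, the gene of the fetal subunit, differed. The probe set 1449532_at had intensities of 361 and 346 on the synaptic arrays, against 82.2 and 94.4 on the non-synaptic arrays. The synaptic values lay close together above the floor and both non-synaptic values below it, so that it was at least 2.22-fold higher in the synaptic region, or 1.15 on the log2 scale. When every probe set was tested, without the limit on dim ones, its limma adjusted p was 0.149 over all probe sets, and that test takes the floor as a measured value. With the floor at the 40th percentile both regions were at the floor, and no difference was left.

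The probe set 1427728_at had intensities of 68.1 and 340 on the synaptic arrays and 74.1 and 355 on the non-synaptic arrays. These values followed the replicate number and not the region, since replicate 2 was 4.99 times as bright as replicate 1 in the synaptic region and 4.78 times in the non-synaptic region. The third probe set, 1452520_a_at, stayed under the floor on all arrays, at 69.2 and 17.2 in the synaptic region and 9.96 and 32.0 in the non-synaptic region. The annotation lists accession X03819 for these 2 probe sets and the RefSeq transcript NM_009604 for 1449532_at. The gamma transcript was therefore measured above the floor with the regions apart by 1 of its 3 probe sets.

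In all, 0 of the 3 tested member probe sets passed the limma test at an adjusted p under 0.05 over all probe sets, where 0.00378% of the 26480 were called higher and 0.00755% lower. At an unadjusted limma p under 0.05, 2 of the 3 were higher, Chrna1 and Chrne, against 0.653% of those tested. The synaptic region was above the other on every array for 3 of the 7 member probe sets, against 9.77% of the probe sets other than controls. Of the 26480 probe sets tested, 34 had a log2 difference at least as large as that of Chrna1, itself included, and 10 at least as large as that of Chrne. The median log2 difference over all tested probe sets was -0.01.

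**Figure D2:**
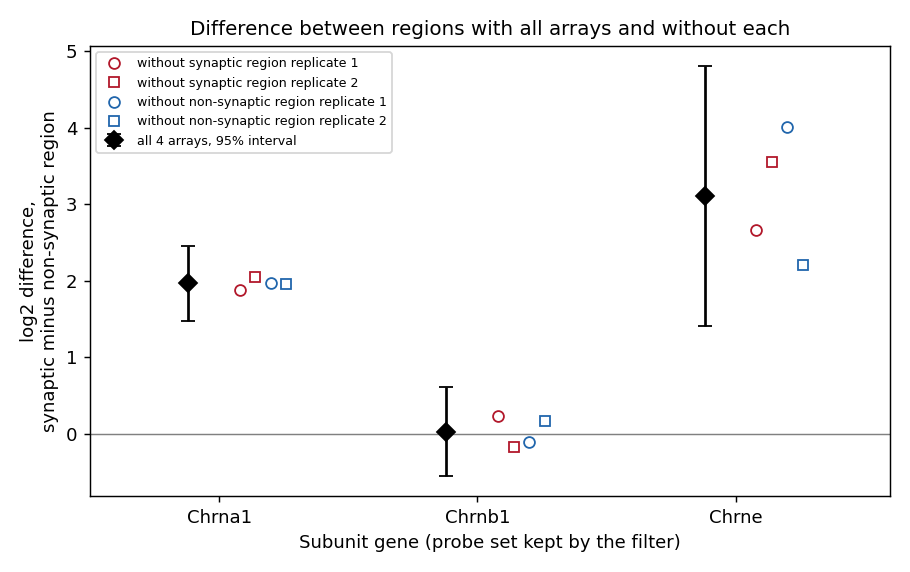
Log2 difference, synaptic minus non-synaptic region, of the 3 tested receptor subunit probe sets. Black diamonds are all 4 arrays with the 95% interval of the limma fit, and open symbols are the difference without each array in turn. Chrna1 stays between 1.88 and 2.05, Chrne spans 2.20 to 4.01 and Chrnb1 lies on either side of 0.

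The brightness of different probe sets depends on how well each binds its target, so the subunits were not ranked by level. The ratio of a pair of subunits within an array is free of the scaling of that array and can be set against the same ratio on other arrays. The log2 ratio of Chrna1 to Chrnb1 was 0.17 and -0.40 on the synaptic arrays, against -1.91 and -2.19 on the non-synaptic arrays, a difference of 1.93. The log2 ratio of Chrne to Chrnb1 was -0.43 and -1.72 on the synaptic arrays, against -3.11 and -5.20 on the non-synaptic arrays, a difference of 3.08. Both ratios thus separated the regions. Each gave a 2-sided exact permutation p of 0.33, the smallest that 2 arrays against 2 allow (0.583 after Benjamini-Hochberg adjustment over 7 ratios).

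The log2 ratio of Chrne to Chrna1 was added after the member values were seen. It was -0.61 and -1.31 on the synaptic arrays, against -1.20 and -3.01 on the non-synaptic arrays, and the regions overlapped. The difference of 1.14 gave an exact permutation p of 0.667 (0.933 adjusted over the 7 ratios). No outcome of that test could pass with 2 arrays a region, so it says nothing about whether Chrne differed more than Chrna1. Ratios of Chrnd and Chrng to Chrnb1 held values at the floor and are not measures of these transcripts.

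**Figure D3:**
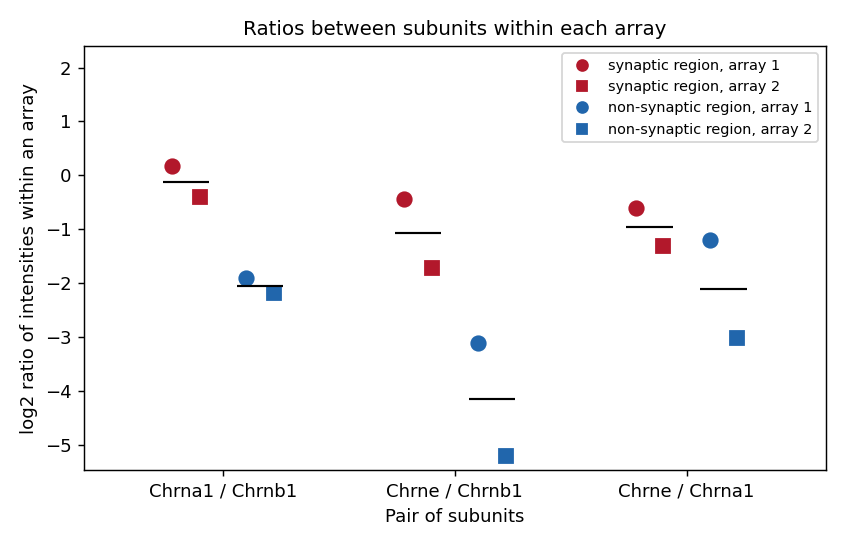
Log2 ratio of intensities within each array for 3 pairs of subunits, 1 point per array, with synaptic arrays in red left of non-synaptic arrays in blue and a black line at each region's mean. The regions are apart for Chrna1 and Chrne over Chrnb1, and overlap for Chrne over Chrna1, where the synaptic value of -1.31 lies below the non-synaptic value of -1.20.

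The stretches before the transcription starts of the subunit genes are shown because nerve-dependent control of these genes is known to act through their promoters. The N-box, TTCCGG or CCGGAA, is bound by factors of the ETS family and is known from synaptic transcription of the epsilon and delta genes. The E-box, CANNTG, is bound by myogenic factors such as myogenin. RefSeq promoter windows of GRCm38.p6, 300 bases each, matched 4 of the 5 genes, and Chrnd was not matched. The 150 bases that end just before the outermost annotated start are printed 5′ to 3′ on the strand of the gene, with N-boxes and E-boxes in capitals. They lie at chr2:73580339-73580488 on the minus strand for Chrna1, chr11:70619214-70619363 on the minus strand for Chrne, chr11:69795967-69796116 on the minus strand for Chrnb1 and chr1:87205661-87205810 on the plus strand for Chrng.
Chrna1: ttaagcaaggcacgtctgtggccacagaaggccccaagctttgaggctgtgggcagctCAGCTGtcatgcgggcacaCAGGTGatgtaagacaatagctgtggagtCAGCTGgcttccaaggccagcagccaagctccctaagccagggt
Chrne: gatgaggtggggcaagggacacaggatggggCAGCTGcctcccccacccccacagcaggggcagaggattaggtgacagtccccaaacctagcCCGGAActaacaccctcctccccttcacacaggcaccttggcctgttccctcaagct
Chrnb1: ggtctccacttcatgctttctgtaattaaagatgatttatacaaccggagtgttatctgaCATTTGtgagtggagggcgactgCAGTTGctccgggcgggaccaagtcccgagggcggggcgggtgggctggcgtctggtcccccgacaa
Chrng: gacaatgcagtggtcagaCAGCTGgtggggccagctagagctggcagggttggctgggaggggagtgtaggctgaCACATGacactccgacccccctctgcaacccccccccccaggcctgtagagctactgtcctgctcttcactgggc

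Both strands were searched over the full windows of 300 bases, and the motifs found do not overlap each other. Of the 4 genes, Chrne had an N-box, CCGGAA at bases 76 to 71 before the start site on which its window is set, where 14.9% of 32851 windows held at least 1. It also had 1 E-box, CAGCTG at bases 138 to 133 before that site. Chrna1, Chrnb1 and Chrng had 3 E-boxes each and no N-box, 1 E-box of Chrnb1 and 1 of Chrng lying outside the printed stretch, and 72.3% of all windows held an E-box. Chrnb1, with the regions overlapping, and Chrna1, with the regions apart, thus held the same count of each motif. These matches are descriptions of the letters and do not show that a factor bound there.

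Genes beside the subunit genes were read as well, a comparison added after the member values were seen. The nearest tested gene on either side of Chrne was Mink1, with a log2 difference of 0.10 ± 0.34, and Slc25a11, with -0.15 ± 0.23 (SE, n = 2 arrays each). On either side of Chrna1 they were Wipf1, at -0.08 ± 0.33, and Chn1, at -0.54 ± 0.81. Those around Chrnb1 were Zbtb4 at -0.14 ± 0.21 and Fgf11 at -0.16 ± 0.25, and those around Chrnd and Chrng were Alpi at -0.42 ± 0.33 and Eif4e2 at -0.09 ± 0.19. None of these neighbours passed the limma test (adjusted p = 0.9999 for each) or had an unadjusted p under 0.05. RefSeq places a further gene, 4930544D05Rik, inside the span of Chrne and the long noncoding gene Gm30940 across part of Chrna1, and neither has a probe set of its own here.

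The probe sets whose values over the 4 arrays, centred on their mean, came closest to those of Chrna1 were sought among 22189 tested probe sets of 1 gene each. The closest were 2 probe sets of Cd24a, which encodes a small cell surface glycoprotein, with root mean square differences of 0.065 and 0.087 on the log2 scale. The brighter had intensities of 23679 and 20107 on the synaptic arrays, against 5048 and 5413 on the non-synaptic arrays. Next came the potassium channel genes Kcna1 at 0.099 and Kcna2 at 0.12, and Crym, which encodes a protein that binds thyroid hormone, at 0.12. Kcna1 had intensities of 4583 and 3422 on the synaptic arrays, against 972 and 1053 on the non-synaptic arrays, and its 4 probe sets gave log2 differences from 0.25 to 2.08. Those of the 4 Kcna2 probe sets ran from -0.02 to 1.75 and those of the 3 Cd24a probe sets from 1.80 to 2.06. Kcna2, at 388 and 348 on the non-synaptic arrays, passed the limit for testing only through the synaptic region.

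Likeness to Chrne was looser. The closest were Sox10, a transcription factor of Schwann cells, at 0.39, Igfbp2, a binding protein of insulin-like growth factors, at 0.44, and the calcium-binding protein Cabp7 at 0.58. Col20a1, a collagen gene, at 0.66 and the phosphatase gene Dusp15 at 0.69 followed. Igfbp2 had intensities of 6538 and 4563 on the synaptic arrays, against 1155 and 657 on the non-synaptic arrays. Like Chrne, it was lowest on replicate 2 of the non-synaptic region. The Sox10 probe set had its replicate 2 of the non-synaptic region at the floor, and the log2 differences of the 3 Sox10 probe sets ran from 0.46 to 2.80. The Cabp7 probe set was also at the floor on that array, and the 2 probe sets of Cabp7 gave 0 and 3.85. The 2 probe sets of Dusp15 gave 0.38 and 2.36, and the 4 of Col20a1 from 1.12 to 2.13. Cabp7, at 289 and 51.2 on the non-synaptic arrays, and Dusp15, at 428 and 238, passed the limit for testing only through the synaptic region. The same holds for Sox10, at 947 and 135 on the non-synaptic arrays, by its mean log2 value there. With 4 arrays many profiles look alike, and the order is a description.

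Subunits of the neuronal nicotinic receptors, the same protein family in neurons, were compared as relatives. Of 11 genes 10 had a probe set of their own and 4 were tested, with a median log2 difference of 0.14 against -0.01 over all tested probe sets. By limma 0 of the 4 passed, and 0 had an unadjusted p under 0.05. Chrna4 differed by 0.31 ± 0.32, Chrnb2 by 0.25 ± 0.32, Chrna2 by -0.18 ± 0.33 and Chrnb4 by 0.02 ± 0.42 (SE). The 3 probe sets of Chrnb2 gave from -0.94 to 0.25 and the 3 of Chrna4 from -0.04 to 0.31. The 2 of Chrnb4 gave -0.49 and 0.02, and Chrna2 had 1. Chrna2 had intensities of 3096 and 2149 on the synaptic arrays and 3693 and 2324 on the non-synaptic arrays, which overlap.

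Receptors are gathered under the nerve by agrin, its receptor Lrp4, the kinase MuSK and the scaffold protein rapsyn. Of 24 genes of clustering and anchoring 23 were tested, with a median log2 difference of 0.04. By limma 0 passed over all probe sets, and 1 was higher and 0 lower at an unadjusted p under 0.05. This was Prkar1a, which encodes a subunit that holds protein kinase A inactive, at 1.02 ± 0.24, with intensities of 36069 and 50675 on the synaptic arrays, against 18486 and 23890 on the non-synaptic arrays. Its 3 probe sets gave from 0.12 to 1.44.

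Next by p in that list were the kinase Src at 1.001 ± 0.40, the dystrophin relative Utrn at 0.39 ± 0.23, Lrp4 at 0.32 ± 0.21, the MuSK activator Dok7 at -0.54 ± 0.37 and the kinase Abl2 at 0.32 ± 0.25. The 2 probe sets of Dok7 gave -0.54 and 0.12, and the 2 of Src 0.73 and 1.001. Those of Utrn ran from -0.02 to 0.39 and those of Abl2 from 0 to 0.32, with 3 probe sets each. Src had intensities of 959 and 1112 on the synaptic arrays, against 700 and 380 on the non-synaptic arrays. Rapsn, which binds the receptor directly and is named here for that role, had 3779 and 3037 on the synaptic arrays and 3806 and 2995 on the non-synaptic arrays. The Rapsn values of the regions overlapped, and the log2 difference was 0.005 ± 0.24.

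Of 19 genes known to act on transcription of the subunit genes, 17 were tested, with a median log2 difference of 0.03. By limma 0 passed over all probe sets, and 1 was higher and 0 lower at an unadjusted p under 0.05. This was Etv5, an ETS factor, at 2.41 ± 0.21, with 8394 and 9383 on the synaptic arrays against 1542 and 1805 on the non-synaptic arrays. The 3 probe sets of Etv5 gave from 1.43 to 2.41. Its relative Etv4, named after its values were seen, was below the limit for testing, at 2073 and 710 on the synaptic arrays against 97.3 and 69.4 on the non-synaptic arrays. Both non-synaptic values were under the floor, so the log2 difference of Etv4 was at least 2.93, and its other probe set gave -0.31.

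Next by p in the transcription list were Zeb1 at 0.28 ± 0.24, Dach2 at -0.23 ± 0.20 and the myogenic factor Myf5 at 0.23 ± 0.27. Tcf4 at -0.11 ± 0.17 and Gabpa, the DNA-binding subunit of the ETS factor GABP, at 0.10 ± 0.21 followed. The 4 probe sets of Zeb1 ran from -0.80 to 0.28 and the 6 of Tcf4 from -0.11 to 0.03. The 2 of Gabpa gave -0.17 and 0.10, and the 2 of Dach2 -0.36 and -0.23. Of 8 genes of receptor folding and assembly 7 were tested, with a median of -0.04, and by limma 0 passed and 0 had an unadjusted p under 0.05. The genes of that list with the smallest p were Calr at 0.10 ± 0.19, Rer1, which holds unassembled subunits back, at 0.09 ± 0.20 and Pdia4 at -0.10 ± 0.27. Hspa5 at -0.05 ± 0.16, Ric3 at -0.07 ± 0.27 and Canx at 0.04 ± 0.17 followed. The 3 probe sets of Ric3 ran from -0.07 to 0.33 and the 3 of Canx from -0.29 to 0.04. Those of Hspa5 ran from -0.14 to 0.05 and those of Calr from 0.04 to 0.10, with 3 each. The 2 of Pdia4 gave -0.10 and 0.15, and the 2 of Rer1 -0.07 and 0.09.

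Markers of Schwann cells and adipocytes differed most between the regions among the lists of other cells. Of 16 Schwann cell markers 12 were tested, 11 of them with both synaptic arrays on top (9.89% of tested probe sets), and the median log2 difference was 0.87. Ncmap, at 429 and 374 on the non-synaptic arrays, and Egr2, at 260 and 464, passed the limit for testing only through the synaptic region. The count and the median include both genes. Over the 13 on the array the summed intensity was 114301 and 127044 on the synaptic arrays, against 37233 and 38554 on the non-synaptic arrays. Mbp, which encodes myelin basic protein, passed (limma adjusted p = 0.0326, log2 difference 3.50 ± 0.17). The log2 differences of its 8 probe sets ran from 0.23 to 3.82. Of 11 adipocyte markers 7 were tested, and the median log2 difference was -1.50. On the synaptic arrays alone the mean log2 values of Adipoq, Pck1 and Retn were below the limit for testing. They were kept only through the non-synaptic region, and the median includes them. Adipoq had intensities of 186 and 189 on the synaptic arrays, against 9045 and 7243 on the non-synaptic arrays. Over the 9 adipocyte markers on the array the summed intensity was 271329 and 252012 on the synaptic arrays and 294165 and 321885 on the non-synaptic arrays. Most of that sum came from Fabp4, with a log2 difference of -0.12 ± 0.13, and Lpl, with 0.05 ± 0.15. The other tested markers besides Adipoq were Pck1 at -4.16 ± 0.30, Retn at -2.57 ± 0.61, Scd1 at -1.50 ± 0.24 and Car3 at -1.19 ± 0.27. The 3 probe sets of Pck1 gave from -4.16 to 0 and the 4 of Car3 from -1.73 to -0.17. The 2 of Scd1 gave -1.64 and -1.50. Adipoq, an adipocyte hormone gene, was lower and passed (limma adjusted p = 0.0326, log2 difference -5.43 ± 0.26). Neither call held when non-synaptic replicate 1, or replicate 2, was left out, where no probe set passed. No marker of these lists was at the floor on all 4 arrays. The part of either cell type in the receptor values was not tested.

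Lists of 6 markers each for satellite cells, fibroblasts, endothelial cells and macrophages had medians of -0.09, -0.02, -0.24 and -0.02, and none of these markers had a limma unadjusted p under 0.05. The 12 fibre markers had a median log2 difference of 0.02, with both synaptic arrays on top for 0 and at the bottom for 2. One of these was Myh4, the fast myosin IIb, with 32001 and 40267 on the synaptic arrays, against 85890 and 93886 on the non-synaptic arrays, a log2 difference of -1.32 ± 0.18 (limma unadjusted p = 0.000564, adjusted p = 0.492). The other was Actn3, at -0.18 ± 0.14. Of 11 axon and neuron markers 2 were tested, Syt1 at -0.10 ± 0.28 and Stmn2 at -0.02 ± 0.37. The rest were below the limit for testing, several with values under the floor. The summed intensity of all 11 was 4206 and 4578 on the synaptic arrays and 4281 and 4503 on the non-synaptic arrays. Since these sums hold values near background, they do not measure axon content. Markers of immature or regenerating fibres, in which gamma is known to be made, had a median of -0.03 over 8 tested genes. Among them the embryonic myosin Myh3 had 1661 and 2077 on the synaptic arrays, against 612 and 752 on the non-synaptic arrays, a log2 difference of 1.45 ± 0.28 (limma unadjusted p = 0.00325, adjusted p = 0.9999). Next by p were Tnnt2 at 1.05 ± 0.54, Ncam1 at 0.47 ± 0.27 and Cdh15 at -0.15 ± 0.27. The 3 probe sets of Tnnt2 gave from 0.45 to 1.05, and the 7 of Ncam1 from -0.81 to 0.55. The neonatal myosin Myh8 differed by -0.12 ± 0.26 and myogenin, encoded by Myog, by -0.12 ± 0.27.

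**Figure D4:**
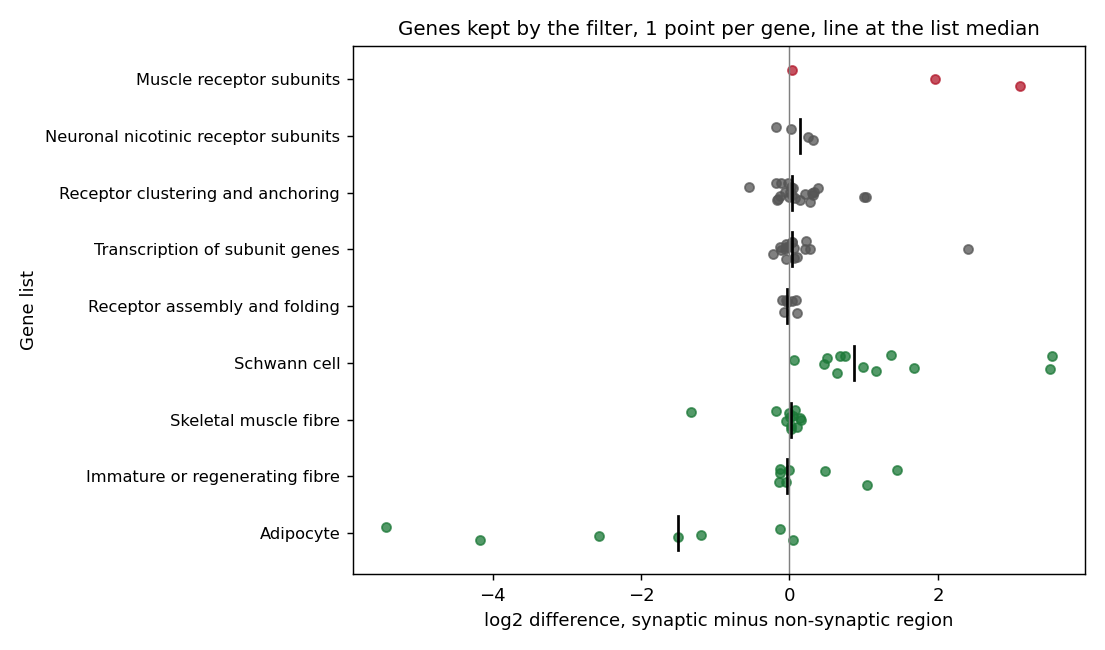
Log2 difference, synaptic minus non-synaptic region, of the genes tested in each list, 1 point per gene, with a black line at the median of each list other than the receptor subunits. Points of the receptor subunits are red, other lists of the receptor's biology grey and cell markers green. Chrne at 3.11 lies right of all grey points, and Chrna1 at 1.97 right of all but Etv5 at 2.41. The Schwann cell list has a median of 0.87.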

How the data were processed

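Transcript levels were measured on 4 one-colour arrays, 2 of each region of the mouse left hemi-diaphragm. The authors deposited 1 linear intensity per probe set and array. How the arrays were scanned, summarised and scaled is not given here by any label or header. The 4 arrays had equal 2% trimmed means, and their scale was left as it was. Log2 was taken after lifting intensities under the 20th percentile to that value. The 64 control probe sets and those with a mean log2 value under the 40th percentile were left out, which left 26480. Differences between regions came from limma 3.58.1 under R 4.3.3 (lmFit, eBayes with an intensity trend, 2 residual and 3.16 prior degrees of freedom), 2-sided, with Benjamini-Hochberg adjustment over all probe sets kept. The fit was tested on simulated data with independent errors on each array. These held no effect shared by arrays of the same replicate number, so they do not test that case.

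Genes were named from the platform annotation, which can be old: 34958 probe sets had 1 gene, 932 several and 9211 none. Of those with 1 gene, 34754 took their current symbol by Entrez identifier from RefSeq tables of GRCm38.p6. A gene outside the receptor was read from its brightest probe set. All member probe sets, the 5 probe sets most like Chrna1 and Chrne, and up to 6 genes per list by smallest unadjusted p were named. The members and lists were chosen with earlier results of these data known. Titles end in e1_le1 or e1_le2, and the number after le was read as a replicate number. It was not taken as a pairing, since 2 pairs and no label establish none. Alternatives were other scalings, filters, floors, priors and thresholds, the replicate number as a block, and leaving out each array. The number of arrays limits the precision.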

Additional observations from a re-analysis of the deposited data

How the results depend on the processing

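The call of Chrna1 and Chrne depends on how the replicate number is treated. With the replicate block 2 member probe sets passed in place of 0, Chrna1 with a difference of 1.97 at a limma adjusted p of 7.42e-05 and Chrne with 3.11 at 0.00032, and over all probe sets 56 were higher and 18 lower in place of 1 and 2. The differences of arrays 1 and 2 of a region correlated at 0.63 between regions over 26480 probe sets, a hint from the data and not from the design. In the other settings 0 member probe sets passed, and the adjusted p of Chrna1 ran from 0.120 to 1. Over all probe sets, the higher count was 6 with median centring, 3 with the filter at the 60th percentile, 6 at an adjusted p under 0.10, and 0 with the raised floor (40th percentile), unfiltered, untrended or unmoderated. The lower count was 0 in these last 4 settings. Leaving out each array gave 0 to 6 higher and 0 to 5 lower, and 0 of each without either non-synaptic array. The difference of Chrna1 was 1.88 to 2.05 and that of Chrnb1 -0.17 to 0.23 without each array, below 0 on leaving out synaptic replicate 2 (-0.17) or non-synaptic replicate 1 (-0.11). With no floor the differences were 1.54 for Chrnd, and 2.003 (1449532_at) and 0.95 (1452520_a_at) for Chrng, all resting on intensities near background. With no floor 4 of the 7 member probe sets had the regions apart, and 2 with the floor at the 40th percentile, where 1449532_at had a difference of 0 (1.12 to 1.18 without each array). Ratios to Chrnb1 that hold floored values changed sign: Chrnd and 1449532_at to -0.030 with the higher floor, and 1452520_a_at to 0.92 with no floor. Without each array the ratio of 1452520_a_at ran from -0.23 to 0.17 and that of 1427728_at from -0.50 to 0.38. The cause of the other changes was not tested. The results with regions apart, the ratio of Chrne to Chrna1 and the neighbours were added after seeing the data.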
